A study of Mus musculus with 15 samples.

Results

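The kinesin motor genes of the mouse were followed through oocyte growth in vivo and in follicle culture. The family was taken as every protein-coding gene whose GENCODE vM21 symbol is Kif followed by a number, which gave 39 of the 55401 gene identifiers in the count files, against 21897 protein-coding genes in all. Of the 39, 36 passed the filter on low counts and were tested. RNA of 6 oocytes of Kunming mice was pooled in each library and amplified with SMART-Seq2, which copies poly(A) RNA without marking strand or molecules. The 15 libraries fall into 5 groups of 3. IVV holds germinal vesicle oocytes whose follicles grew in vivo and were punctured at the antral stage. IVG and IVG-NT hold oocytes of preantral follicles cultured for 10 days without and with neurotrophin-4 (NT-4), a ligand of the receptor TRKB. IVG day 6 and IVG-NT day 6 hold those cultured for 6 days without and with it. The labels give 12 to 14 days as the age of the mice without stating separately that of the donors of the IVV oocytes, and name no transgene in any group. The place of growth, the medium, the stage of the follicle and possibly the age of the donor differ together between IVV and the cultured groups and cannot be told apart.

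Kinesins are ATP-driven proteins that walk along microtubules or take them apart from their ends. In dividing cells they build the bipolar spindle, move and align chromosomes and bring proteins to the midzone where the cell is cut. In interphase cells they carry vesicles, organelles and mRNA, and a further set works in cilia. A fully grown oocyte is arrested before its first meiotic spindle forms and stores mRNA for the divisions to come.

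The libraries held 5954262 to 55593251 counts. IVG-NT day 6 replicates 1 and 2 were the shallowest, at 5954262 and 7125348, and the other 13 libraries held at least 19033272. In 9 libraries (IVV replicate 3 and replicates 1 and 2 of each cultured group) a single rRNA gene, CT010467.1, held between 12.5% and 37.9% of all counts, and these are called rRNA-rich. In the remaining 6, called rRNA-poor, its share was between 0.187% and 0.714%. All 12 oocyte markers looked for, the zona pellucida genes, Gdf9 and Bmp15 among them, had counts in every group and summed to 11800 to 21400 CPM (counts scaled to library size). The 13 granulosa cell markers summed to 49.5 to 438 CPM, those of theca and stroma to 0 to 36.4 CPM and those of macrophages to 0 to 64.9 CPM. The oocyte markers summed to 16300 to 21400 CPM in IVG day 6 and to 11800 to 15200 in IVG-NT day 6, without overlap. In pooled oocytes, fewer cells of a type and less RNA per cell cannot be told apart.

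All levels below are FPKM (counts per kilobase of exon, scaled to library size), computed from the counts with TMM-scaled library sizes and the union of each gene's exons. Members differed in level by more than the groups did. By mean FPKM over the 15 libraries, 10 members lay above 10, 17 between 1 and 10, and 12 below 1. In order these 10 were Kif22 (45.0), Kif23 (43.0), Kif4 (41.3), Kif17 (35.5), Kif2c (27.5), Kif20a (18.5), Kif5c (16.7), Kif20b (16.1), Kif14 (15.7) and Kif3a (12.6). Together they held 76.3% to 89.2% of the summed FPKM of the family in each library. Their order is not firm between neighbours. Kif22 ranged from 29.6 to 77.8, Kif23 from 18.9 to 72.1 and Kif4 from 18 to 58.4 FPKM, so the levels of these genes overlapped. In 7 of the 10 the gene works in cell division. Kif22 is a chromosome-arm motor, Kif4 binds chromosomes and the midzone, Kif2c takes microtubules apart at the centromere, Kif14 acts at the midbody, and Kif23, Kif20a and Kif20b serve cytokinesis. The other 3 carry cargo: Kif17 and Kif3a are motors of dendrites and cilia, and Kif5c is a heavy chain of conventional kinesin. All 10 had counts in all 15 libraries, as had 23 of the 39 members.

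The motor of a kinesin holds a nucleotide-binding loop, the P-loop (Walker A motif), which by itself does not mark a protein as a kinesin. The coding sequence of this loop is shown for 8 of the 10 highest members because it is a part that these genes share. The 24 capital bases encode the loop, with the neighbouring codons in lower case (GENCODE vM21 transcript of the longest complete coding sequence, GRCm38, given 5′ to 3′ on the coding strand).
Kif22, chr7:127034025-127034139, minus strand: tatGGGCCTACTGGGGCAGGGAAGACAcac
Kif23, chr9:61937178-61937201, minus strand: tatGGCGTGACGGGAAGTGGAAAAACCtac
Kif4, chrX:100633865-100633888, plus strand: tatGGGCAGACTGGATCTGGAAAAACGtat
Kif17, chr4:138268984-138269007, plus strand: tatGGCCAGACAGGCAGTGGGAAGTCTttc
Kif2c, chr4:117167297-117167320, minus strand: tatGGACAGACAGGCAGTGGGAAGACAcat
Kif5c, chr2:49680203-49680226, plus strand: tatGGGCAGACTTCATCAGGAAAAACTcat
Kif20b, chr19:34929786-34929809, plus strand: tatGGTCTGACCAATTCTGGAAAAACAtat
Kif14, chr1:136471546-136471569, plus strand: tatGGCCAGACTGGCTCTGGAAAGTCCtat
In Kif22 an intron lies within the interval. Among the 28 pairs of these 8 stretches, 12 to 21 of the 24 bases were identical, with the highest value for Kif17 and Kif2c. A match to the P-loop pattern was found in 36 of the 39 coding sequences. Within these 36 it took 13 forms at the protein level, and the most common form was shared by 9 members, Kif4 and Kif2c among them. In all 36 it began in the first 50% of the codons. In Kif2c it began at 47.7%, in Kif2b at 45.4% and in Kif2a at 42.0% of the codons, the internal motor known of this subfamily, and in no other member beyond the 28.8% of Kif14. The 3 without a match were Kif1bp, a kinesin-binding protein that is not itself a motor, and the atypical kinesins Kif26a and Kif26b. Kif26a returns below as the member with the smallest P of the culture comparisons.

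The promoter windows of the members (RefSeq, GRCm38.p6, 250 bases before to 50 after the start) were searched for the hexamer TTTGAA on both strands, the core of the CHR element (cell cycle genes homology region) through which the MuvB complex is known to act on genes of mitosis. A window was given for 31 of the 39 members. It held the hexamer in 12 of the 31 (38.7%), against 20.2% of 27025 genes. All shares of genes in this search are over these 27025, which were not limited to protein-coding genes as the members are. Within 50 bases of the start, a limit set after the matches were seen, 9 of 31 members had it (29.0%), against 5.72% of all genes. These 9 were Kif11, Kif15, Kif18b, Kif20b, Kif22, Kif23 and Kif4, which act in division, and also Kif1a and Kif26b. A second hexamer, TAATTG, a homeodomain site, was found in 2 of 31 (6.45%, Kif6 and Kif9) against 9.22% of all genes. The windows of the 3 highest members are shown with TTTGAA or its reverse complement TTCAAA in capitals.
Kif22, chr7:127042371-127042670, minus strand: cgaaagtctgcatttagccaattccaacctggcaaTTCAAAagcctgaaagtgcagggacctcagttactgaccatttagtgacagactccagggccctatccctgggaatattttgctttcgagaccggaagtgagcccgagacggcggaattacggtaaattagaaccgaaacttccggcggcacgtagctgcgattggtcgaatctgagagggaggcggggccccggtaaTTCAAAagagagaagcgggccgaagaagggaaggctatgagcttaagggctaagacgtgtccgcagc
Kif23, chr9:61946750-61947049, minus strand: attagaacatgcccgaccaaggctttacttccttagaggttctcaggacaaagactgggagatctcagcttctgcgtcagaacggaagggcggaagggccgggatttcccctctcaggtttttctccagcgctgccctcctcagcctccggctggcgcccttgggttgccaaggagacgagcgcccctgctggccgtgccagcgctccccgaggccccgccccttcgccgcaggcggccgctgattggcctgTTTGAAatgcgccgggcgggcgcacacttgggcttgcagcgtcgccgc
Kif4, chrX:100625815-100626114, plus strand: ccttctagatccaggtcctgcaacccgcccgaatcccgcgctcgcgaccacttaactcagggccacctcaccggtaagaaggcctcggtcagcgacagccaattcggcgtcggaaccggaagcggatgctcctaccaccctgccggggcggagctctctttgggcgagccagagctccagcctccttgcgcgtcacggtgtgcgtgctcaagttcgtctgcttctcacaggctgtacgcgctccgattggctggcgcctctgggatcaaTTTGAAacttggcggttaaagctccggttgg
In these windows the match nearest to the start began 17 bases before it in Kif22, 2 bases after it in Kif23 and 19 bases after it in Kif4. A match is a description of the letters and was not tied to any level here.

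**Figure D1:**
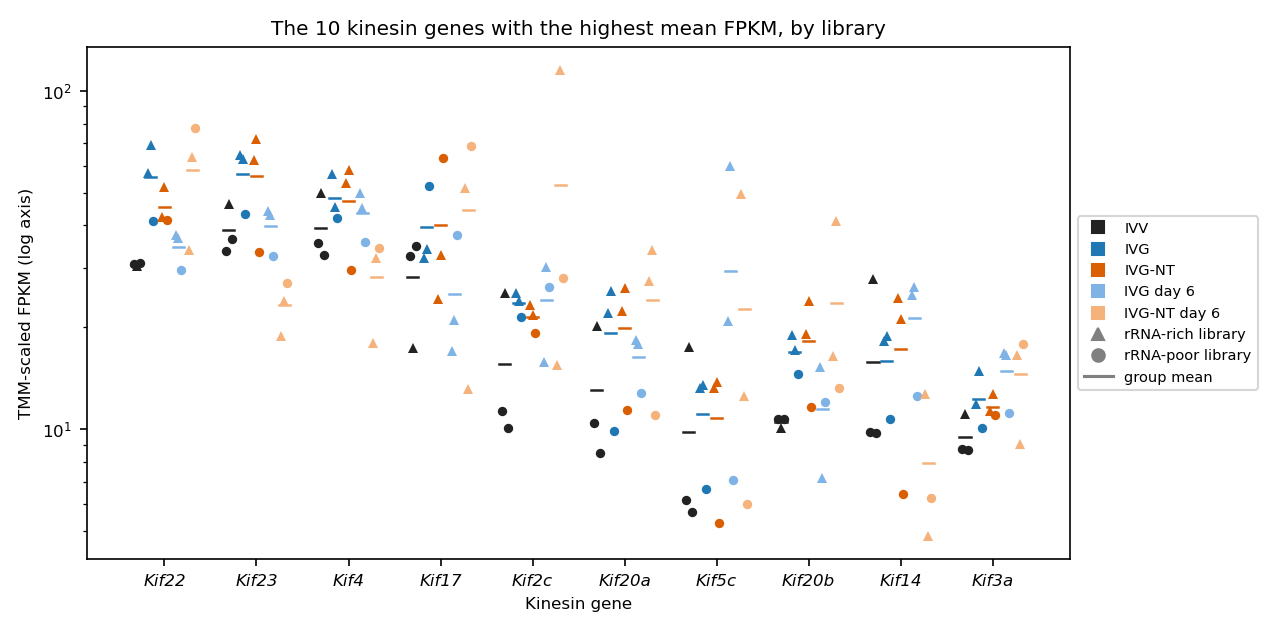
TMM-scaled FPKM (log axis) of the 10 kinesin genes with the highest mean, with 1 point per library coloured by group, triangles for rRNA-rich and circles for rRNA-poor libraries, and a short line at each group mean. For Kif5c and Kif20a the triangles lie above the circles, while the IVV points of Kif22 sit together between 30.3 and 30.9.

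Growth in vitro for 10 days was compared with growth in vivo to ask how the culture alters the oocyte. The fitted values of the spindle and cytokinesis kinesins were mostly above 0 after culture, some by far less than their standard error. None of these genes passed the study's threshold for a differentially expressed gene (DEG: log2 fold change beyond 1 and unadjusted P under 0.05). Of the 36 members tested 1 was a DEG in IVG against IVV (2.78%, where 2.76% of all 21009 genes were), and 0 in IVG-NT against IVV (3.29% of all genes). In both comparisons 0 members had an adjusted p under 0.05 in edgeR's quasi-likelihood test, as had 0 of all genes, and at an unadjusted P under 0.05 there were 1 and 0 members, while DESeq2 gave 0 DEGs among them in both but no p for Kif5a in the first or for Kif6 in the second. Both comparisons use the same IVV libraries.

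Kif22, the member with the highest mean over the 15 libraries, was at 30.7, 30.3 and 30.9 FPKM in the IVV libraries. The IVG libraries held 57.2, 69.1 and 41.1, and the IVG-NT libraries 42.5, 52.1 and 41.5 FPKM. All 6 cultured libraries lay above all 3 IVV libraries. The fitted log2 fold change was 0.87 ± 0.54 (SE) in IVG and 0.57 ± 0.54 in IVG-NT (adjusted p = 1.0 for both by edgeR's quasi-likelihood test), neither past the threshold. It was 0.84 in IVG when the fit held a term for rRNA-rich libraries, and 1.08 over those libraries alone, where IVV has 1, and neither made it a DEG. Kif20b, which bundles midzone microtubules, was also above IVV in every day 10 library: the IVV libraries held 10.7, 10.1 and 10.7 FPKM, those of IVG 19.0, 17.1 and 14.6, and those of IVG-NT 19.1, 23.9 and 11.6. Kif18a, a motor that dampens chromosome movement at the metaphase plate, was the other member that did not overlap IVV in either comparison, with 2.25 to 3.15 FPKM after growth in vivo, 3.98 to 5.57 in IVG and 4.73 to 5.06 in IVG-NT.

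The fitted value of Kif20b in IVG-NT was 0.79. Kif21b had the smallest P after Kif22 among the higher members of IVG (1.49, with 0.464, 4.10 and 0.560 FPKM in IVV against 6.42, 6.79 and 1.2), and without IVV replicate 3 it was a DEG at 3.17. That setting leaves 2 rRNA-poor IVV libraries against IVG with 2 rRNA-rich libraries of 3, and Kif21b differed by kind of library (2.61 ± 0.42), so the group and the kind cannot be told apart there.

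Counted over the family, 5 members in IVG (Kif16b, Kif18a, Kif20b, Kif22 and Kif2a, all higher) and 3 in IVG-NT (Kif18a, Kif20b and Kif22, all higher) had libraries that did not overlap with IVV. These are 13.9% and 8.33% of the members, where 11.9% and 11.6% of all genes did not overlap, so the shares lay near the background. The median log2 fold change of the members was 0.29 in IVG and 0.26 in IVG-NT, against -0.20 and -0.19 over all genes. By role, all 10 tested members listed under spindle and chromosome had a fitted value above 0 in both comparisons (medians 0.45 and 0.44). So had the 3 of cytokinesis (0.56 and 0.61), where 42.7% and 43.2% of all genes lay above 0. In IVG the 10 ran from 0.02 ± 0.69 (SE) for Kif14 to 1.36 ± 1.39 for Kif24. Kif24 was also the highest of the 10 in IVG-NT (1.32 ± 1.39). With DESeq2's size factors, which moved the median of all genes to -0.39 in IVG and -0.36 in IVG-NT, 8 of these 10 were above 0 in each, and all 10 stayed above the median of all genes. A term for rRNA-rich libraries in the fit left 8 of the 10 above 0 in each comparison, without Kif14 and Kif15, and over the rRNA-rich libraries alone 6 and 8 were. The 3 cytokinesis genes stayed above 0 in every alternative run.

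The cilium and flagellum members went the other way, with 0 of 4 above 0 in either comparison and medians of -2.21 and -2.59. This rested on IVV replicate 3. Kif7, a regulator of Hedgehog signalling at the cilium tip, had 26, 149 and 0 counts in IVV, and Kif6 had 0, 66 and 10. The fitted values, none of them past the threshold, were -4.41 in IVG and -4.31 in IVG-NT for Kif7, and -5.28 in IVG-NT for Kif6. Without IVV replicate 3 the medians were 0.18 and -0.30, and 2 of the 4 lay above 0 in each comparison. That library is the rRNA-rich one of its group, and it held the highest FPKM of 7 of the 39 members, Kif7 and Kif2b among them. The share of all genes that were highest there is not given here. The part of IVV replicate 3 in these values beyond what leaving it out shows was not tested.

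The DEG of IVG against IVV was Kif5a, the neuronal heavy chain of conventional kinesin, at very low counts. It had 32, 26 and 0 counts in IVV and 0 in all 3 IVG libraries (fitted log2 fold change -7.75 ± 3.38 (SE), adjusted p = 1.0). On the group means, with IVG set to 3 counts over the group, Kif5a was 34.0-fold lower, which is no bound because 1 IVV library was at 0 too. The call was lost without IVV replicate 3 and without any single IVG library (-7.74 to -6.69). Its relatives were far higher. Kif5b, the ubiquitous heavy chain, averaged 8.62 ± 0.604 FPKM over the IVV libraries, 8.41 ± 1.13 over IVG and 6.60 ± 2.09 over IVG-NT (SD, n = 3 for each). Kif5c averaged 9.80 ± 6.71, 11.1 ± 3.86 and 10.7 ± 4.74 FPKM.

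Adding NT-4 for 10 days left the family without a DEG: 0 of 36 members in IVG-NT against IVG, where 1.24% of all genes were DEGs. By edgeR's quasi-likelihood test 0 members had an adjusted p under 0.05 and 0 an unadjusted P under 0.05, and DESeq2 also gave 0 DEGs. The members' median was -0.04 and that of all genes 0.01, with 25% of the members below -0.31 and 25% above 0.11. A single member, Kif16b, an endosome motor, did not overlap between the groups: 3.60, 3.63 and 3.87 FPKM in IVG and 2.27, 3.55 and 3.2 in IVG-NT. That is 2.78% of the members, against 3.59% of all genes. Among higher members the smallest P were those of Kif5a (0 counts in IVG, and 14 in 1 of the 3 IVG-NT libraries) and Kif1c (log2 fold change 0.51 ± 1.18). Among lower members they were those of Kif1a, a motor of synaptic vesicles (-1.72 ± 1.88), and Kif22 (-0.30 ± 0.54).

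**Figure D2:**
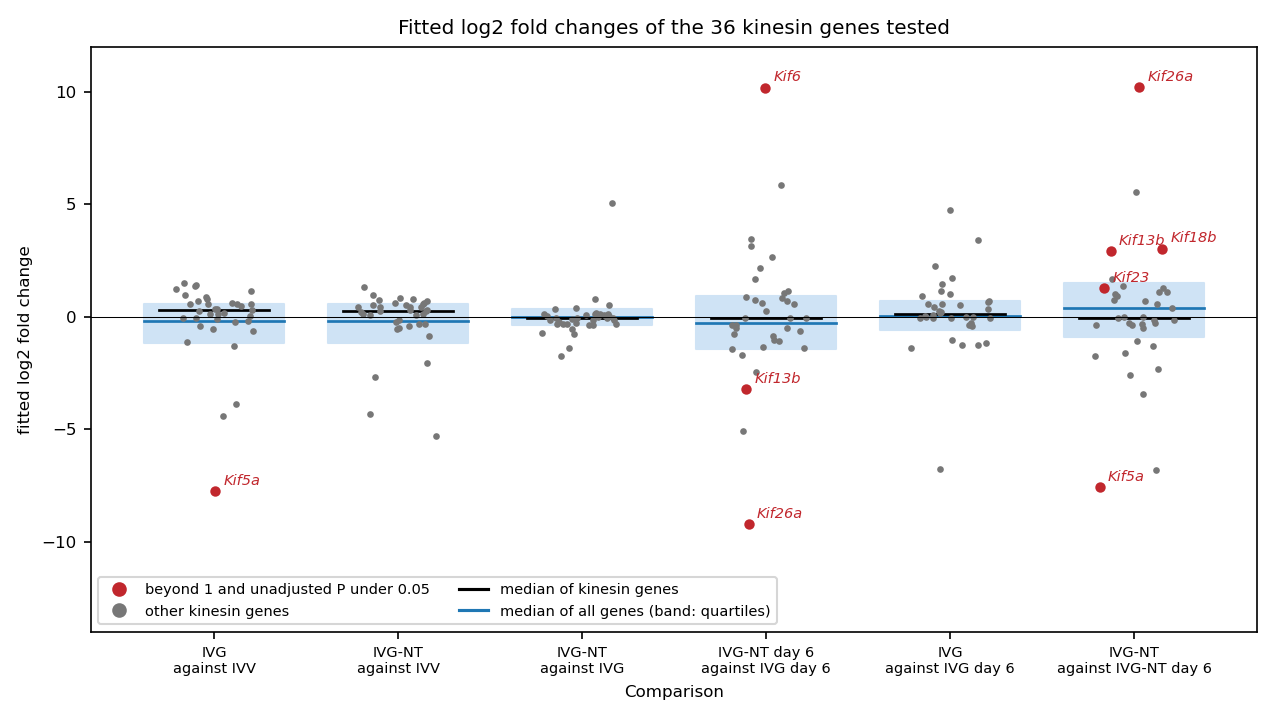
Fitted log2 fold changes of the 36 tested kinesin genes in the 6 comparisons, with 1 point per gene, DEGs in red and named, black lines at the members' median, and blue lines and bands at the median and quartiles of all 21009 genes. DEGs appear mainly in the 2 comparisons that use IVG-NT day 6, where the band of all genes is also widest.

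The day 6 libraries with NT-4 gave most of the calls, in a group with 2 shallow libraries. In IVG-NT day 6 against IVG day 6, 3 of 36 members were DEGs (8.33%), below the 11.6% of all genes. In IVG-NT against IVG-NT day 6, 5 were DEGs (13.9%), beside 12.7% of all genes. In both, 0 members had an adjusted p under 0.05 in edgeR's quasi-likelihood test (smallest 0.381 and 0.357). The sums of oocyte markers also lay lower in IVG-NT day 6 than in IVG day 6, and the part of this in the kinesin values was not tested. These comparisons share the IVG-NT day 6 libraries, of which replicates 1 and 2 held the highest FPKM of 14 of the 39 members (35.9%). The share over all genes is not given here, so this is not read as a trait of the family.

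Kif26a, an atypical kinesin known from enteric neuron development, had 0 counts in all 3 IVG-NT day 6 libraries, the deepest of which holds 50336973 counts. IVG day 6 had 30, 77 and 79 counts, IVG 368, 377 and 106, IVG-NT 124, 242 and 18, and IVV 237, 675 and 249. Every other group thus had counts in each of its libraries. Set to 3 counts over the group, Kif26a was 50.2-fold lower in IVG-NT day 6 than in IVG day 6 on the group means. The fitted log2 fold change was -9.23 ± 2.39 (SE, adjusted p = 0.381 in edgeR's quasi-likelihood test). In IVG-NT it was 99.1-fold higher than in IVG-NT day 6 (10.21 ± 2.42, adjusted p = 0.357). Both folds pool the 2 kinds of library, with the deepest IVG-NT day 6 library rRNA-poor, and neither is a bound within a kind. Kif26a was also fitted higher in rRNA-rich libraries (2.43 ± 0.82, adjusted p = 0.0502). It was a DEG in every alternative run for either comparison. Leaving out the 2 shallow libraries keeps IVG-NT day 6 replicate 3 alone, which is then assumed to vary like the other groups, here and for the genes below. Kif26a was then at -9.36 and 10.32. DESeq2 gave -6.55 (adjusted p = 0.00321) and 7.42 (adjusted p = 0.000348). Over all alternatives the adjusted p ran from those values to 1.0 in either comparison. Where it had counts its mean level was low, from 0.297 ± 0.236 FPKM in IVG day 6 to 2.44 ± 2.98 in IVV (SD, n = 3 each).

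Kif13b, a motor for membrane receptors and polarity proteins, was lower in IVG-NT day 6 than at either neighbour. It had 0.290, 0 and 0.612 FPKM there, against 4.17, 3.32 and 1.02 in IVG day 6 and 1.76, 4.58 and 0.639 in IVG-NT, without overlap in either case. The log2 fold change was -3.22 ± 1.34 (adjusted p = 0.394) against IVG day 6, and IVG-NT day 10 exceeded day 6 by 2.93 ± 1.32 (adjusted p = 0.380). Both calls were lost with a term for rRNA-rich libraries (-2.52 and 2.19) and without the 2 shallow libraries (-2.11 and 1.81). The first was lost without IVG day 6 replicate 1 or 2 or without IVG-NT day 6 replicate 1 (-3.17 to -2.84), and the second without any of IVG-NT replicates 1 and 2 and IVG-NT day 6 replicates 1 and 2 (1.91 to 3.01).

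Kif18b and Kif23 were DEGs in IVG-NT against IVG-NT day 6 and not in IVG against IVG day 6, but the difference between these changes did not pass its own test. In that test, of the NT-4 effect on day 10 minus that on day 6, 2 of 36 members met the DEG threshold (Kif26a and Kif6), where 6.37% of all genes did, and Kif18b differed by 2.59 ± 1.67 (adjusted p = 0.898). Kif18b, which shortens astral microtubules, was at 0.452, 0 and 1.58 FPKM on day 6 and at 5.18, 8.06 and 3.71 on day 10 (3.03 ± 1.26, adjusted p = 0.357). Kif23, the motor of centralspindlin, was at 18.9, 23.9 and 27 FPKM on day 6 and at 62.4, 72.1 and 33.5 on day 10 (1.27 ± 0.53, adjusted p = 0.358). In each the day 10 libraries lay above all day 6 libraries. Within the rRNA-rich libraries the values were 4.95 and 1.71, and both were DEGs. Both calls were lost without IVG-NT replicate 1 or 2 or without IVG-NT day 6 replicate 1 (2.62 to 3.01 for Kif18b and 1.01 to 1.14 for Kif23), and without both shallow libraries (1.73 and 0.94). With DESeq2's size factors Kif23 was at 0.76 and no longer a DEG.

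Kif6 and Kif5a rested on a single library. In IVG-NT day 6 replicate 1, Kif6 had 67 counts, and the other 2 libraries of the group and all 3 of IVG day 6 had 0. The log2 fold change was 10.19 ± 4.0 (adjusted p = 0.391 in edgeR's quasi-likelihood test). On the group means, with IVG day 6 set to 3 counts, Kif6 was 155-fold higher, which is no bound because 1 library carries it. The call was lost without IVG day 6 replicate 1 or 3. Kif5a had 359 counts in the same library, 0 and 29 in the others of its group, and 0, 0 and 14 in IVG-NT (-7.56 ± 3.25 for day 10 against day 6), and it was no DEG without IVG-NT replicate 1 or 2 either. Without IVG-NT day 6 replicate 1 the value of Kif5a was -1.17, and Kif6 had no count in either group. Kif6 had a value of -6.80 for day 10 against day 6 and was no DEG there. Kif19a, which was not tested, had its highest count, 157, there too. In IVG-NT day 6 replicate 2 Kif2c stood at 115 FPKM and between 10.1 and 30.2 in the other 14 libraries. Kif20b stood at 41.1 in it, Kif26b at 5.87 (3.16 against IVG day 6, no DEG), and Kif21a, a cortical microtubule stabiliser, at 15.5. In the same library 14 of the 39 members had 0 counts, and 10991 of all gene identifiers had a count, the fewest of the 15 libraries.

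Libraries that did not overlap were counted as well. In IVG-NT day 6 against IVG day 6, 7 members were lower without overlap (Kif13b, Kif18b, Kif1b, Kif23, Kif26a, Kif2a and Kif4) and 0 higher, 19.4% of the members against 8.45% of all genes. In IVG-NT against IVG-NT day 6, 6 were higher without overlap (Kif13b, Kif18a, Kif18b, Kif1b, Kif23 and Kif26a) and 0 lower, 16.7% against 11.0%. Kif1b, a mitochondrion and synaptic vesicle motor, and Kif2a, a microtubule depolymeriser of spindle poles, showed this without being DEGs. The members' medians were -0.05 and -0.04, against -0.27 and 0.40 for all genes. With DESeq2's size factors the members' medians were 0.40 and -0.56 and those of all genes 0.0 and 0.04, so the members stayed on the same side of all genes. Without the 2 shallow libraries they were -0.47 and 0.76 against 0.0 for all genes in both, on the opposite side.

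The culture without NT-4 showed no DEG between day 6 and day 10: 0 of 36 members in IVG against IVG day 6, where 2.90% of all genes were DEGs, with 0 at an unadjusted P under 0.05 in edgeR's quasi-likelihood test and 1 DEG in DESeq2 (Kif1a). Still, 4 members lay higher on day 10 without overlap (Kif16b, Kif1a, Kif22 and Kif5b) and 1 lower (Kif28), together 13.9% against 7.42% of all genes. Kif5b was at 8.41 ± 1.13 FPKM on day 10 and 4.21 ± 1.74 on day 6 (SD, n = 3 each; log2 fold change 1.0 ± 0.64). Kif22 was at 57.2, 69.1 and 41.1 FPKM on day 10 and 37.5, 36.8 and 29.6 on day 6. Kif5c moved the other way, with 20.9, 60.1 and 7.07 FPKM on day 6 and 13.2, 13.5 and 6.67 on day 10, and these overlapped (-1.40 ± 0.90). Kif1a was at 3.40 and Kif5a at -6.77, the latter from 74 counts in 1 day 6 library and 0 in all others of both groups.

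**Figure D3:**
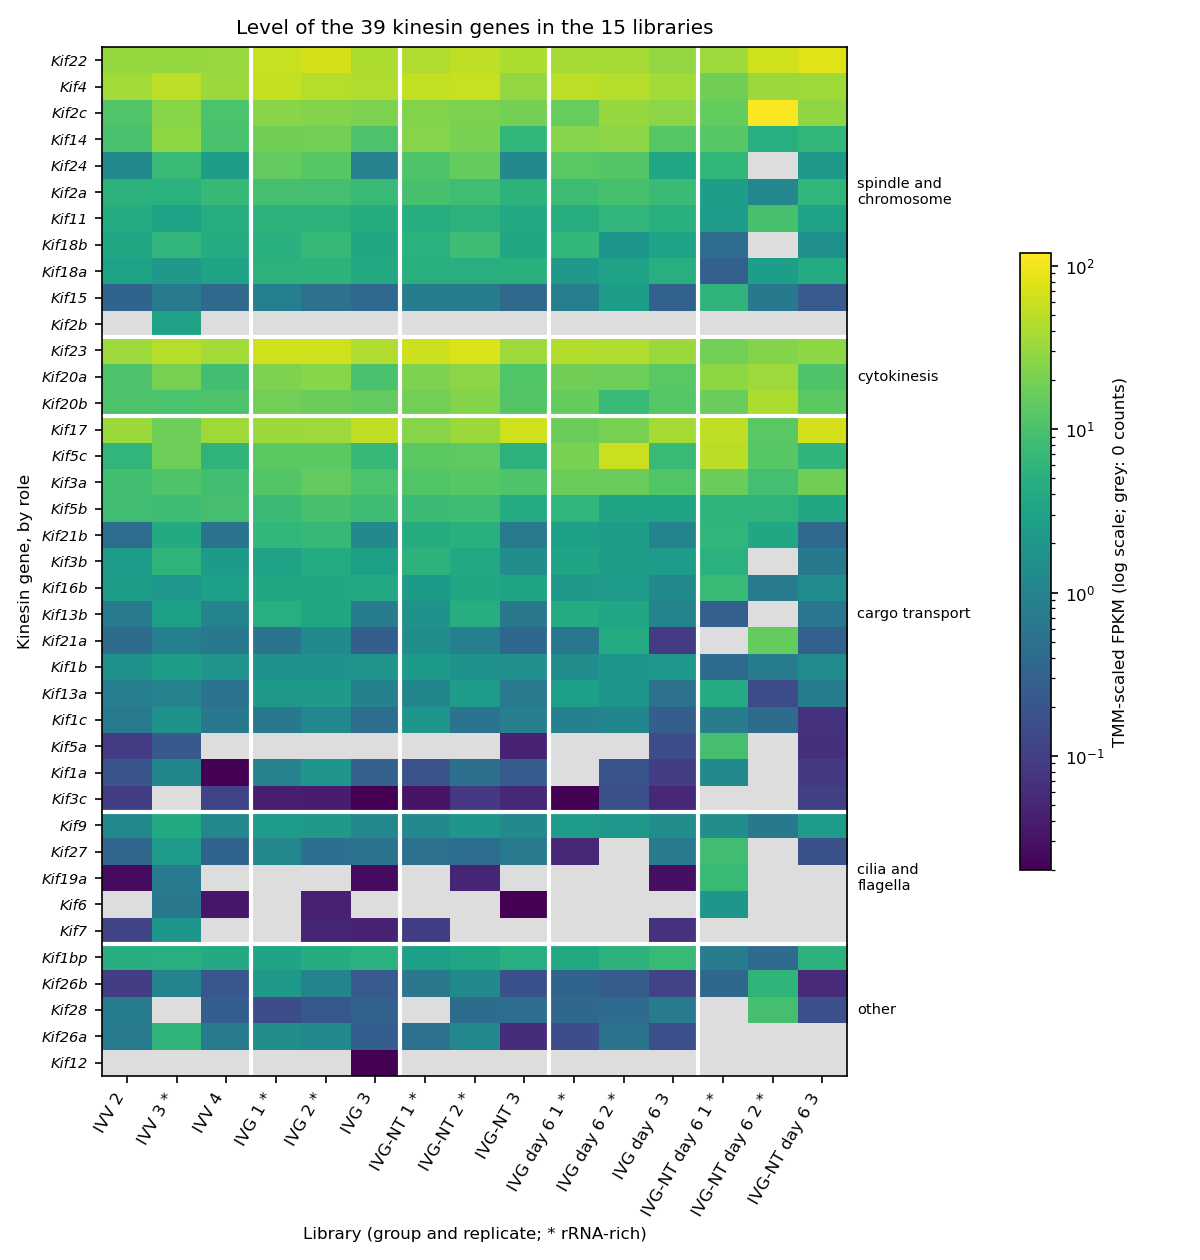
TMM-scaled FPKM of the 39 kinesin genes (rows, by role and then by mean level) in the 15 libraries (columns, by group, with an asterisk for rRNA-rich), on a logarithmic colour scale with grey for 0 counts. The rows of Kif22, Kif4 and Kif23 are bright in every library. IVG-NT day 6 replicate 2 has the most grey cells, 14 of 39, and is the library in which the fewest genes of any kind had a count (10991).

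More members passed a multiple-testing limit by kind of library than in any comparison of groups. The 2 counts are not alike, since the kind sets 9 libraries against 6 and each comparison 3 against 3, where 0 of all genes passed. With group means in the same fit, 6 of 36 members differed between rRNA-rich and rRNA-poor libraries at an adjusted p under 0.05 in edgeR's quasi-likelihood test (16.7%, below the 23.7% of all genes). Kif21b, a motor of neuronal dendrites that slows microtubule growth, was at 2.62 to 6.79 FPKM in the 9 rRNA-rich libraries and at 0.393 to 1.2 in the 6 rRNA-poor ones (log2 fold change 2.61 ± 0.42, adjusted p = 0.000677). Kif5c was at 12.5 to 60.1 FPKM against 5.28 to 7.07 (1.72 ± 0.39, adjusted p = 0.00685). Neither gene overlapped between the kinds, and both passed in all 20 alternatives run. Kif14 (1.11 ± 0.28, adjusted p = 0.013), Kif20a (1.07 ± 0.28, adjusted p = 0.0141) and Kif26b (2.68 ± 0.81, adjusted p = 0.0279) were also higher in rRNA-rich libraries, and passed in 16, 14 and 8 of the 20. Kif17 was lower (-0.97 ± 0.29, adjusted p = 0.0252) and passed in 12. Kif1bp and Kif18a had the next smallest P among the lower members and did not pass.

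Most members leaned the same way as those 5. Of the 36, 27 (75%) were fitted higher in rRNA-rich libraries, against 40.2% of all genes, with a median of 0.44 against -0.54. The median of all genes depended on the setting. It ran from -0.75 without IVV replicate 3 to -0.14 without the 2 shallow IVG-NT day 6 libraries, and was -0.16 with no filter on low counts. The members' median under those settings is not given here. The summed FPKM of the family ran from 327 to 417 in rRNA-rich and from 234 to 325 in rRNA-poor libraries. Across the 36 genes, which are not independent replicates, the log2 fold change had a Spearman correlation of 0.34 with exon length, given as a description. IVV has 1 rRNA-rich library of 3 and each cultured group 2 of 3, so the kind is in part mixed with growth in vitro, and a cause for the kind was not tested.

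**Figure D4:**
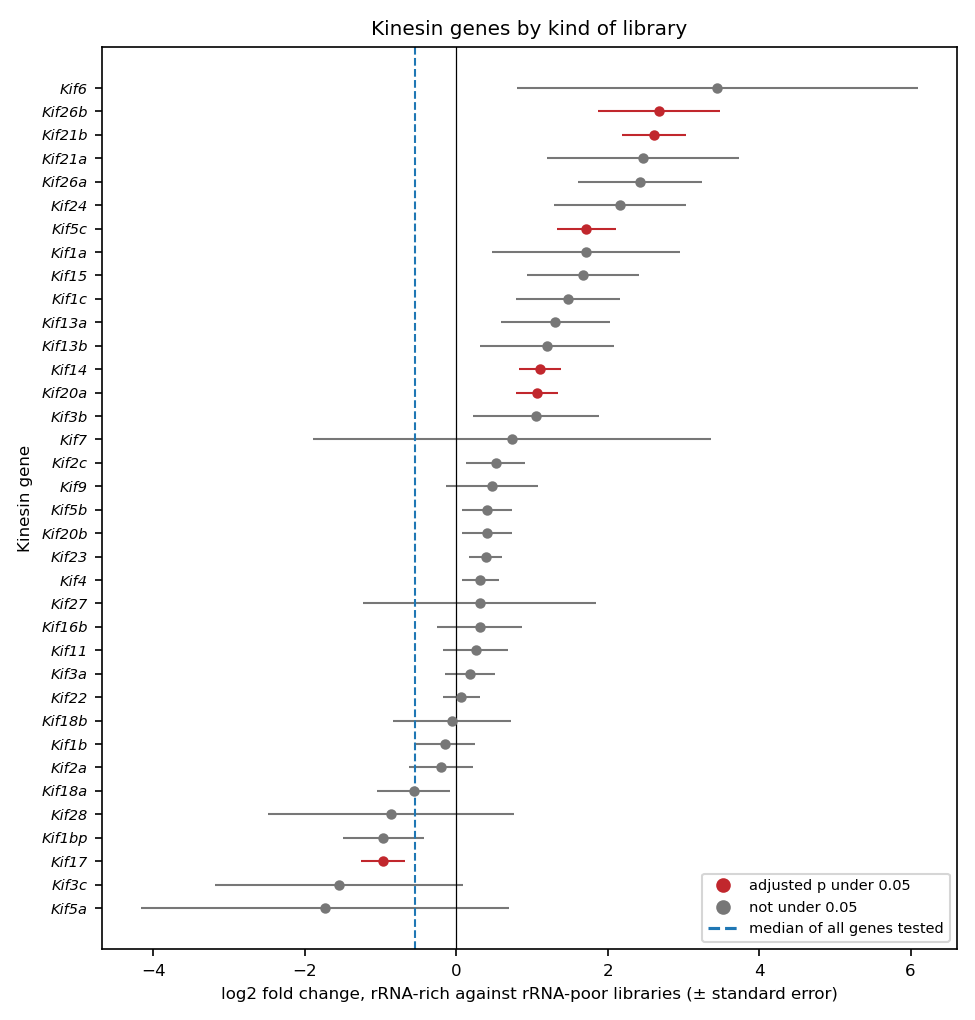
Log2 fold change between the 9 rRNA-rich and the 6 rRNA-poor libraries, with group means in the fit, for the 36 tested kinesin genes (points, with bars of 1 standard error; red for an adjusted p under 0.05). Most points lie to the right of 0 and of the dashed line at -0.54, the median of all genes in this fit, which ran from -0.75 to -0.14 in other settings.

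Members at or near 0 complete the family. Kif12, Kif2b and Kif19a did not pass the filter. Kif12 had 0 to 4 counts, all in 1 IVG library. Kif2b, a microtubule depolymeriser, had 111 counts in IVV replicate 3 and 0 elsewhere, and Kif19a, which trims cilia, had 0 to 157. Kif3c, Kif7, Kif6 and Kif1a passed it at mean levels below 1 FPKM, as did Kif5a, Kif1c, Kif26a, Kif28 and Kif26b (0.654 to 0.918). Some counts cannot be assigned with certainty, since the counting is not stated to use strand: 15 members share exon bases with another gene, 12 of them with a gene on the opposite strand, up to 35.3% of the bases of Kif3c (1110002L01Rik), 29.3% of Kif20a (Cdc23), 19.2% of Kif2a (Dimt1) and 15.1% of Kif4 (Pdzd11). Kif4-ps, a pseudogene of Kif4 outside the family as defined, had 0 to 67 counts in 14 libraries and 3436 in IVG-NT day 6 replicate 2.

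Partners of the kinesins were read from lists given by gene symbol. Among 11 further kinesin motors, light chains and the Kif3 adaptor, led by Cenpe (24.9 FPKM, a kinetochore kinesin) and Kifc3 (10.1), 0 were DEGs in any of the 6 comparisons. Among 14 tested cargo adaptors, led by Arl8b (35.5) and Rhot1 (22.7), 3 were DEGs in IVG-NT day 6 against IVG day 6. Spag9 was 4.64 higher (1181, 0 and 128 counts against 169, 4 and 159), Trak2 was at -4.73 and Arl8b at -1.70. In IVG-NT against IVG-NT day 6 there were 4: Bicd1 (53.4-fold higher on the group means), Trak2 (4.89), Arl8b (1.67) and Spag9 (-4.89). The other comparisons had 0. Among 21 dynein and dynactin subunits, led by Dynlrb1 (223 FPKM) and Dynll2 (67.1), 4 were lower in IVG-NT day 6 than in IVG day 6 (Dctn4, Dync1i2, Dctn5 and Dctn6), and 2 were higher on day 10 with NT-4 (Dctn4 and Dctn5). For these lists and the next ones, DEGs made up 11.6% of all genes in IVG-NT day 6 against IVG day 6, 12.7% in IVG-NT against IVG-NT day 6, 2.90% in IVG against IVG day 6 and 3.29% in IVG-NT against IVV. Every DEG of the lists in the comparisons with IVG-NT day 6 had an adjusted p of 0.357 to 0.415.

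The tubulins, the track of the motors, were led by Tubb4b (432 FPKM) and Tuba3a (231). Of 16 tested, Tuba8, Tuba3b and Tuba3a were DEGs, higher in IVG-NT day 6 than in IVG day 6, and Tuba1b, Tuba1c and Tuba3a were lower on day 10 than on day 6 with NT-4. The call for Tuba8 rested on 13 counts in the shallow IVG-NT day 6 replicate 1, with 0 in the other 5 libraries. Tuba1c was also lower in IVG than in IVG day 6 (-1.69 ± 0.61, adjusted p = 1.0), with 9319, 10955 and 33528 counts on day 6 and 3171, 4354 and 13900 on day 10. Near-identical copies such as Tuba3a and Tuba3b may share reads, so their values are uncertain. Of 30 spindle assembly genes, led by Tacc3 (159) and Aurka (71.5), 7 were DEGs in IVG-NT day 6 against IVG day 6 (Mapre2, Cep192, Prc1, Clasp1 and Haus3 lower, Tubgcp4 and Cdk5rap2 higher) and 7 in IVG-NT against IVG-NT day 6 (Mapre2, Cep192, Ckap5 and Clasp1 higher, Tubgcp3, Haus8 and Cdk5rap2 lower). Tubgcp4 had 767, 0 and 85 counts in IVG-NT day 6 against 30, 17 and 101, its highest in the same shallow library as Tuba8 and Spag9. Haus8, an augmin subunit, was the sole DEG of the list against IVV, lower in IVG-NT (-1.98 ± 0.87, adjusted p = 1.0).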

How the data were processed

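RNA of 6 pooled oocytes per library was amplified with SMART-Seq2 and sequenced in pairs. The authors used HISAT2 and the mm10 genome for alignment and StringTie for assembly, and deposited raw counts per Ensembl gene for each library. The counter and the annotation release are not given in the sources used here. The sample titles number the IVV libraries 2 to 4 and gave group and replicate; the file names number them differently and were not used. A table of the whole series holds the same counts and was not used.

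The fits were made in edgeR 4.0.16 under R 4.3.3 (TMM, filterByExpr with minimum count 10, quasi-likelihood F test, group means over 15 libraries, 21009 genes); the test was checked on simulated data. Fold changes are log2. P-values were adjusted by Benjamini and Hochberg over all genes tested. The DEG threshold is the study's. The kind of library (CT010467.1 above 5% of counts) was tested with group means in the fit. DESeq2 1.42.0 was an alternative. Sequences were read from GENCODE vM21 transcripts and RefSeq promoters with Biopython 1.88. Some sequences are not reported here. Figures used matplotlib 3.10.9.

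The family, its role groups, the partner and marker lists and the kind of library were chosen with earlier results of these data known. Named were the 10 members of highest mean FPKM, every DEG, for each comparison the 2 higher and 2 lower members of smallest P, for the kind of library 3 and 3, members under the filter, and of each partner list the 2 highest and every DEG. Other members are named after their values were seen, as where libraries did not overlap. A group at 0 was set to 3 counts over the group to give a fold on the group means. This fold sets the mean CPM of the other group's libraries against those 3 counts at the pooled depth of the group at 0. It leaves out the scatter between libraries and pools the 2 kinds of library, so it is not called a bound.

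Samples came from replicated experiments, but which libraries share an experiment is not stated. Deviations of same-numbered libraries correlated at 0.37, 0.41 and 0.73 for IVG-NT and IVG. For IVG and IVG day 6 they correlated at 0.23, 0.15 and 0.54. The values were 0.07 to 0.33 for the comparisons with IVG-NT day 6, and -0.52 to -0.28 against IVV. In each cultured group replicate 3 is rRNA-poor, while in IVV it is rRNA-rich. A shared experiment and the kind of library cannot be told apart in these values, so the numbers are not known to pair libraries. PCR copies carry no molecular identifiers, so counts understate the error. Each SD is the spread between the libraries of a group. Each SE comes from the edgeR fit, whose dispersion is estimated over all 5 groups and shared in part across genes. The SE of any comparison therefore also carries the scatter of the shallow IVG-NT day 6 libraries. The counts of the libraries range from 5954262 to 55593251. The p-values set a difference against this fitted spread between libraries.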

Additional observations from a re-analysis of the deposited data

Results flagged for a closer look

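The effect of NT-4 was compared between day 10 and day 6 by the interaction term of the edgeR fit over all 15 libraries. For Kif26a the log2 difference, day 10 minus day 6, was 8.47 (SE 2.71, adjusted p = 0.664 over all genes by edgeR's quasi-likelihood test), with 0 counts in all 3 IVG-NT day 6 libraries. For Kif6 it was -11.57 (SE 4.72, adjusted p = 0.699), with the 67 counts of IVG-NT day 6 replicate 1 as the only ones in either day 6 group. These 2 of 36 members lie beside 6.37% of all genes with an unadjusted P under 0.05 and a difference beyond 1, and Kif13b, Kif18b and Kif23 were not among them.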

How the results depend on the processing

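Relative to the counts of kinesin DEGs in the report, DESeq2 gave 0 in IVG against IVV, 7 in IVG-NT day 6 against IVG day 6 and 1 in IVG against IVG day 6, and its size factors in the edgeR fit gave 7 in the day 6 comparison. No filter on low counts gave 2 in IVG against IVV, 1 in IVG-NT against IVV, 1 in IVG-NT against IVG, 5 at day 6 and 1 in IVG against IVG day 6. The rRNA-rich libraries alone gave 0 in IVG against IVV, 7 at day 6 and 8 in IVG-NT against IVG-NT day 6, and the kind of library in the fit gave 1 in IVG-NT against IVV. Fits of only the 2 groups compared gave 0 in IVG against IVV, 1 at day 6, 1 in IVG against IVG day 6 and 2 in IVG-NT against IVG-NT day 6. Without the 2 shallow libraries, a setting chosen after seeing the data, there were 3 in IVG against IVG day 6 and 3 in IVG-NT against IVG-NT day 6, where the members' median was 0.76. Leaving out single libraries gave 0 to 1 in both comparisons with IVV and in IVG against IVG day 6, 0 in IVG-NT against IVG, and 1 to 10 in both comparisons with IVG-NT day 6, with 10 without IVG-NT day 6 replicate 3. The 6 members that differed by kind of library became 12 with DESeq2, 3 with no filter, 2 over the 12 in vitro libraries, 12 without the 2 shallow libraries, and 2 to 10 without single libraries (2 without IVG-NT replicate 3, 3 without IVV replicate 3, IVV replicate 4 or IVG replicate 3, and 10 without IVG-NT day 6 replicate 2). The share of all genes called under each of these settings, and under those below, is not given here. These counts therefore describe the settings and are not read as changes of the kinesins. Causes of these changes were not tested.

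With the replicate number as a block, the count was 0 in IVG against IVV, 1 in IVG-NT against IVV and 2 in IVG-NT against IVG-NT day 6. In IVG-NT against IVG and in IVG against IVG day 6 it stayed at 0. No result changed direction past the threshold in any alternative. DESeq2 gave no p for Kif5a in 4 comparisons and for Kif6 in 3, so its counts do not cover them there. With 3 libraries a group and 2 of them shallow in IVG-NT day 6, members with few counts were measured coarsely.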
